A study of Mus with 16 samples.

Results

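Immunoglobulin gene segments were followed in B16 melanoma tumors from mice with and without B cells. They were taken as the rows of the deposited table of read counts whose gene type begins with IG_ and that had at least 1 read over the 16 libraries. Of 38087 rows in the table, 433 had that gene type and 144 of these were read, while 289 were at 0. The summed reads chose the rows, so being read is no finding, and 83 of the 144 lay just inside the limit with exactly 1 read. The gene type turned out to be wider than its name. By position, 89 of the 144 rows lay in the immunoglobulin heavy, kappa or lambda loci, 53 lay in T cell receptor loci, and 2 (Ptcra and Gm20730) lay in neither. Values are therefore given by locus, and "immunoglobulin" below means the 89 rows of the 3 immunoglobulin loci.

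Antibodies are built from pairs of heavy and light chains. In a developing B cell, variable (V), diversity (D) and joining (J) segments are cut and joined into 1 exon, which is then spliced to a constant (C) region. The heavy chain first uses the mu constant region and, after class switching, those of gamma, alpha or epsilon, while most mouse light chains use kappa and few use lambda. Plasma cells, the secreting descendants of B cells, carry very large amounts of these transcripts. T cell receptors are assembled from segments of their own by the same enzymes.

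The tumors were established under the skin of C57BL/6 mice and grown for 7 days. The 4 groups of 4 were wild-type (WT) untreated, WT given anti-PD-L1 antibody, B cell-depleted untreated, and B cell-depleted given anti-PD-L1, and the comparison asks how B cells bear on the response to this antibody, which blocks PD-L1, a ligand that restrains T cells through PD-1. The antibody was given 3 times, 3 days apart, and tumors were removed 3 days after the last dose. The methods describe the study's mice as young females, and the design text of the series also names an intratumoral injection of 3M-052, a TLR agonist, or control that the sample labels do not list. How B cells were removed from these mice is not stated: the methods list the muMt- knockout, which disrupts a membrane exon of Ighm, beside depletion by antibody, while the columns of the table read BKO. Each library was taken as 1 animal, since the series gives 4 mice per group; the group and the column's letter name a library below.

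Library totals ran from 12.5 to 35.6 M reads, so a count of 3 reads stood at 0.0842 to 0.239 reads per M library reads (CPM), and counting error was large for nearly every segment. The WT libraries held 227.5 M reads and the B cell-depleted libraries 201.6 M. Each gene was listed with its whole span as its length. The sources used here do not name the counter, so how exons and strand were counted is not known. In bulk tumor RNA, fewer cells of a type and less RNA per cell cannot be told apart. Library C of WT untreated stood apart from the other WT libraries for immunoglobulin reads, so values are also given without it. Over 15 B cell markers, all of which were read, the summed level spanned 43.3 to 75.5 CPM in WT and 38.7 to 73.4 CPM in B cell-depleted tumors. In WT against B cell-depleted tumors, Cd79a had 194 against 160 reads, Cd79b 25 against 39 and Ms4a1 12 against 16.

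The immunoglobulin loci held 446 reads in all, 347 in WT and 99 in B cell-depleted tumors. In the 4 WT untreated libraries A to D they had 29, 24, 135 and 21 reads, and in WT anti-PD-L1 59, 27, 32 and 20. In B cell-depleted untreated tumors they had 17, 1, 9 and 34 reads, and in B cell-depleted anti-PD-L1 3, 20, 4 and 11. The ranges overlapped: WT libraries spanned 0.629 to 5.85 CPM and B cell-depleted libraries 0.0636 to 0.991 CPM. Mean levels were 2.09 ± 2.51 CPM in WT untreated, 1.23 ± 0.648 in WT anti-PD-L1, 0.529 ± 0.431 in B cell-depleted untreated and 0.358 ± 0.211 in B cell-depleted anti-PD-L1 tumors (SD, n = 4). Pooled over libraries the level was 3.11-fold higher in WT, and 2.11-fold higher without WT untreated C. The 53 rows in T cell receptor loci did not have fewer reads in B cell-depleted tumors, with 89 reads in WT and 104 in B cell-depleted tumors (0.391 and 0.516 CPM pooled).

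**Figure D1:**
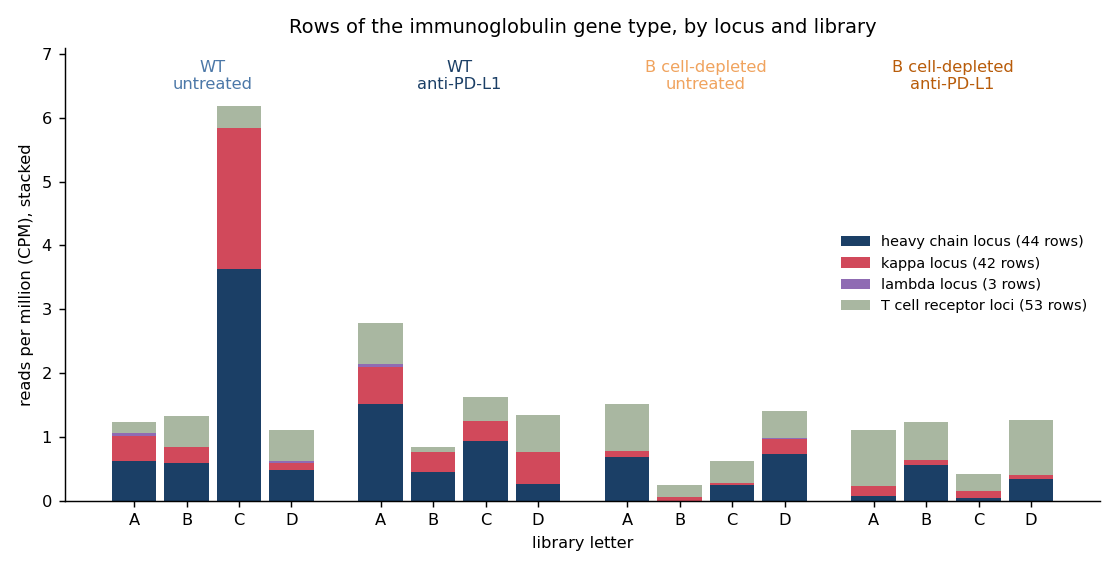
Stacked CPM of the rows of the immunoglobulin gene type, split by heavy, kappa, lambda and T cell receptor loci (vertical axis), in each of 16 libraries grouped by B cell status and treatment (horizontal axis). WT untreated C holds 5.85 CPM in the immunoglobulin loci, and the kappa part is at most 0.233 CPM in each B cell-depleted library.

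By locus, the kappa locus had 121 reads in WT and 21 in B cell-depleted tumors, 5.11-fold higher in WT when pooled and 3.29-fold without WT untreated C. The heavy chain locus had 223 and 77 reads, 2.57-fold higher in WT and 1.78-fold without that library. Only 4 reads lay in rows of the lambda locus, 3 in WT and 1 in B cell-depleted tumors. By segment class, C regions held 319 of the 446 reads (252 in WT, 67 in B cell-depleted), V segments 121 (89 and 32), J segments 5 (5 and 0) and D segments 1 (1 and 0). Without Ighm and Igkc, the remaining rows had 131 reads in WT and 35 in B cell-depleted tumors, so the difference in counts was not made by these genes alone.

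Igkc is the constant region of the kappa light chain (ENSMUSG00000076609, chromosome 6, 70726435 to 70726757 of mm10). It had 5, 2, 31 and 1 reads in WT untreated libraries A to D and 13, 1, 3 and 9 reads in WT anti-PD-L1. All 8 B cell-depleted libraries had 0 reads, so the groups did not overlap, although 2 WT libraries held a single read. Of the 31822 genes with at least 1 read, Igkc was the 1 gene read in 8 of 8 WT and 0 of 8 B cell-depleted libraries, 0.00314% of them. Mean levels were 0.406 ± 0.63 CPM in WT untreated and 0.24 ± 0.2 CPM in WT anti-PD-L1 (SD, n = 4). Against a floor of 3 counts over the B cell-depleted libraries, which is 0.0149 CPM, the pooled level was at least 19.2-fold lower in B cell-depleted tumors, and at least 11.2-fold lower without WT untreated C.

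An exact two-sided permutation test of Igkc CPM, 8 WT against 8 B cell-depleted libraries, gave p = 0.000155, the smallest that the splits of 16 libraries can give, with Igkc lower in 8 of 8 B cell-depleted libraries. After Benjamini-Hochberg adjustment over all 31822 genes the permutation p was 0.137, and the share of genes called at an adjusted p under 0.05 was 0%. Within each treatment, 4 against 4, the exact p was 0.0286, which is the smallest this design allows. Anti-PD-L1 against untreated WT tumors gave an exact p of 0.83. Without WT untreated C, the exact permutation p over the remaining libraries was again 0.000155. Igkc and Ighm had been named as markers with earlier results of these data known, so their tests add no independent support.

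Ighm encodes the mu constant region, the first heavy chain of a B cell and the chain of IgM (ENSMUSG00000076617, chromosome 12, 113418950 to 113422730). Unlike Igkc, it was read in both B cell groups. It had 11, 12, 65 and 9 reads in WT untreated libraries A to D, and 21, 9, 20 and 4 in WT anti-PD-L1. In B cell-depleted tumors it had 12, 0, 7 and 19 reads untreated and 1, 18, 0 and 7 reads with anti-PD-L1. All 8 WT libraries were thus read, 2 B cell-depleted libraries were at 0, and 3 others reached 12 to 19 reads, as many as most WT libraries. Mean levels were 0.977 ± 1.2 CPM in WT untreated, 0.486 ± 0.33 in WT anti-PD-L1, 0.331 ± 0.27 in B cell-depleted untreated and 0.227 ± 0.25 in B cell-depleted anti-PD-L1 tumors (SD, n = 4). The row gives 1 count for a span of 3781 bases, so its reads do not show which exons were present. They cannot check an allele that disrupts 1 of these exons.

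The 8 against 8 comparison of Ighm did not pass: the pooled log2 difference, B cell-depleted minus WT, was -1.06, and -0.41 without WT untreated C, with an exact permutation p of 0.121 and 0.756 after adjustment over all genes. Ighm was the 1 immunoglobulin row past the low-count filter of the edgeR quasi-likelihood fit over 19340 genes. In that fit its log2 change from WT to B cell-depleted was -1.52 ± 0.86 (SE) in untreated tumors, with a Benjamini-Hochberg adjusted p of 0.343, and it was -0.12 without WT untreated C. In anti-PD-L1-treated tumors it was -0.93 ± 0.94, with an edgeR adjusted p of 0.533 and a range of -0.52 to -1.90 when 1 library was left out (the ends without B cell-depleted anti-PD-L1 C and B). Across all genes, edgeR called 0.889% in the first of these comparisons and 0.698% in the second. For treatment, the log2 change of Ighm was -1.07 ± 0.83 in WT (edgeR adjusted p = 0.410) and -0.48 ± 0.97 in B cell-depleted tumors (edgeR adjusted p = 0.868). The interaction, meaning how far the effect of B cell status in treated tumors departs from that without treatment, was 0.59 ± 1.29 (edgeR adjusted p = 0.786). These comparisons called 0.00517%, 0.0672% and 7.62% of all genes. The sign of the WT treatment difference turned without WT untreated C, to 0.33.

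Igha, the constant region of IgA, the antibody class of mucosal secretions, is listed as AC160982.1 and was named from its position in RefSeq (ENSMUSG00000095079, chromosome 12, 113258768 to 113260236). It had 4, 1, 12 and 6 reads in WT untreated libraries A to D and 2, 0, 0 and 1 reads in WT anti-PD-L1. In B cell-depleted tumors 1 read was found, in untreated library D, and the other 7 libraries were at 0. The lowest WT untreated library, B, and B cell-depleted untreated D thus each held 1 read (0.035 and 0.0292 CPM). The WT anti-PD-L1 libraries overlapped with the B cell-depleted libraries. Pooled, 26 reads against 1 gave a level 23.0-fold higher in WT, with an exact 95% counting interval of 3.78 to 944, and 14 of the 26 reads remained without WT untreated C. Mean levels over 8 libraries were 0.124 CPM in WT and 0.00364 CPM in B cell-depleted tumors, with an exact permutation p of 0.00699 that became 0.317 after adjustment over all genes. When edgeR was run without the low-count filter, the B cell difference in untreated tumors had an unadjusted p of 0.00149 and an adjusted p of 0.109. The lower counts with anti-PD-L1 in WT tumors had an unadjusted p of 0.00579 and an adjusted p of 0.137 in the same edgeR fit.

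IgG is the main class of switched antibodies in serum, and 3 of its constant regions are among the 144 rows, with 12 reads in all. Ighg2b had 5 reads, all in WT (1 in untreated B, 3 in anti-PD-L1 A and 1 in anti-PD-L1 B), Ighg3 had 4 reads, all in WT anti-PD-L1 A, and Ighg1 had 3 reads, 1 in WT anti-PD-L1 A, 1 in B cell-depleted untreated D and 1 in B cell-depleted anti-PD-L1 C. Library A of WT anti-PD-L1 thus held 8 of these 12 reads. Ighg2c, the IgG2 constant region of C57BL/6 mice, is typed as protein-coding and so is not among the 144 rows. It had more reads than Igkc, with 36 reads in 7 WT libraries and 38 reads in 7 B cell-depleted libraries, with 15 reads in WT anti-PD-L1 A, 15 in B cell-depleted untreated D, 13 in B cell-depleted anti-PD-L1 D and at most 6 elsewhere. The WT to B cell-depleted ratio of Ighg2c was 0.839 (counting interval 0.517 to 1.36), so not every heavy chain constant region was at lower counts in B cell-depleted tumors. Ighe and Iglc2, also typed as protein-coding, had 1 and 3 reads.

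**Figure D2:**
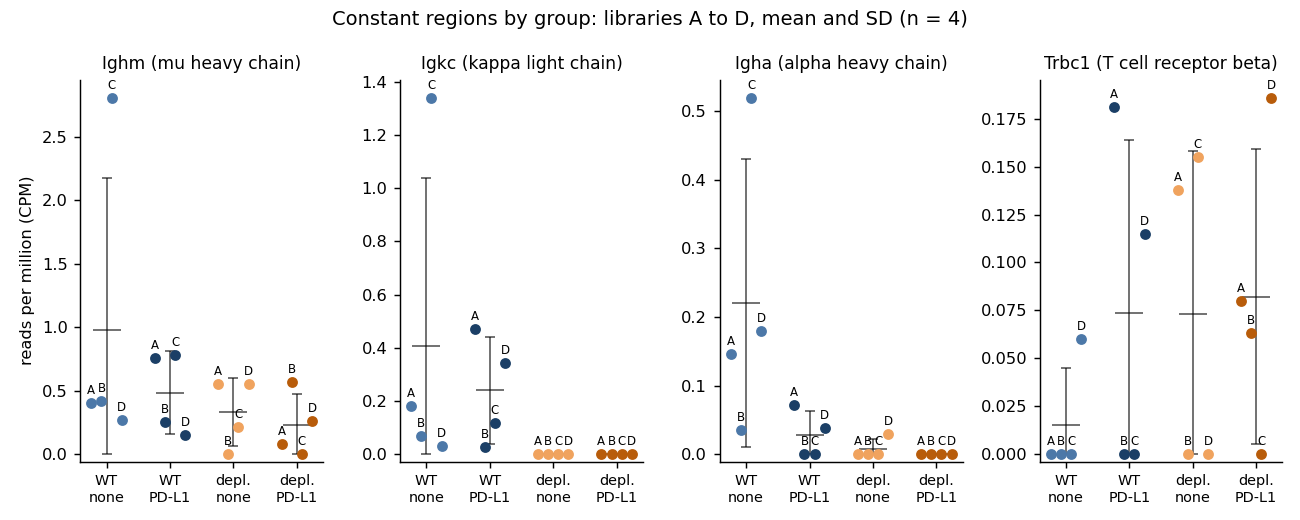
CPM of 3 immunoglobulin constant regions and of Trbc1 (vertical axes, different scales) in the 4 groups (horizontal axis; none, untreated; depl., B cell-depleted). Points are libraries A to D, and lines are the mean and SD with the lower bar cut at 0. Igkc is at 0 in all 8 B cell-depleted libraries, Ighm overlaps between groups, and Trbc1 has no order by B cell status.

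Among J and D segments of the immunoglobulin loci, 2 of 30 rows were read. Igkj5, a kappa joining segment of 42 bases, had 5 reads, all in WT untreated C, the library with 31 Igkc reads. The D segment row AC073553.16, placed at a heavy chain D segment in RefSeq, had 1 read in WT untreated A. None of the 4 heavy chain J rows had a read, and rows this short can hold few reads.

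V segments supply the antigen-binding part of each chain, and their reads were thinly spread. Of 214 V rows in the immunoglobulin loci, 81 (37.9%) were read: 38 of 113 heavy, 40 of 98 kappa and 3 of 3 lambda rows. Of these 81, 57 had 1 read, 14 had 2, and 10 had 3 or more, and 65 were read in a single library. In WT tumors 65 V rows were read and in B cell-depleted tumors 26, with 10 rows read in both. By library, V rows held 8, 8, 22 and 5 reads in WT untreated A to D, and 15, 16, 9 and 6 in WT anti-PD-L1. They held 5, 1, 2 and 13 reads in B cell-depleted untreated and 2, 2, 3 and 4 in B cell-depleted anti-PD-L1 tumors. Scaled to depth, the lowest WT library stood at 0.150 CPM, and the groups overlapped: B cell-depleted untreated A (0.230 CPM), untreated D (0.379) and anti-PD-L1 A (0.159) lay above it and the other 5 below it.

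The most-read immunoglobulin V rows were all kappa segments. Igkv6-29 had 6 reads, 1 in WT anti-PD-L1 C and 5 in B cell-depleted tumors (3 in untreated D, 1 in anti-PD-L1 C and 1 in anti-PD-L1 D). Igkv4-55, listed as AC158673.1, had 5 reads, all in WT untreated C, and its span lies within Gm11143, a gene with 14 reads of which 6 were in that library, so these reads cannot be assigned to it alone. Igkv9-129, listed as AC122814.1, had 4 reads in 4 libraries, 3 of them WT. Of the 81 V rows, 6 had 3 or more reads within 1 library, 5 of them in a WT library: beside Igkv4-55 these were Igkv3-4 and Ighv1-53 in WT untreated C, Igkv4-70 in WT untreated B and Ighv1-76 in WT anti-PD-L1 A. WT untreated C thus held 3 of the 5, together with Igkj5. These rows besides the first 3 named were singled out after their counts were seen, and reads of near-identical V segments may have been listed under a sister segment.

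**Figure D3:**
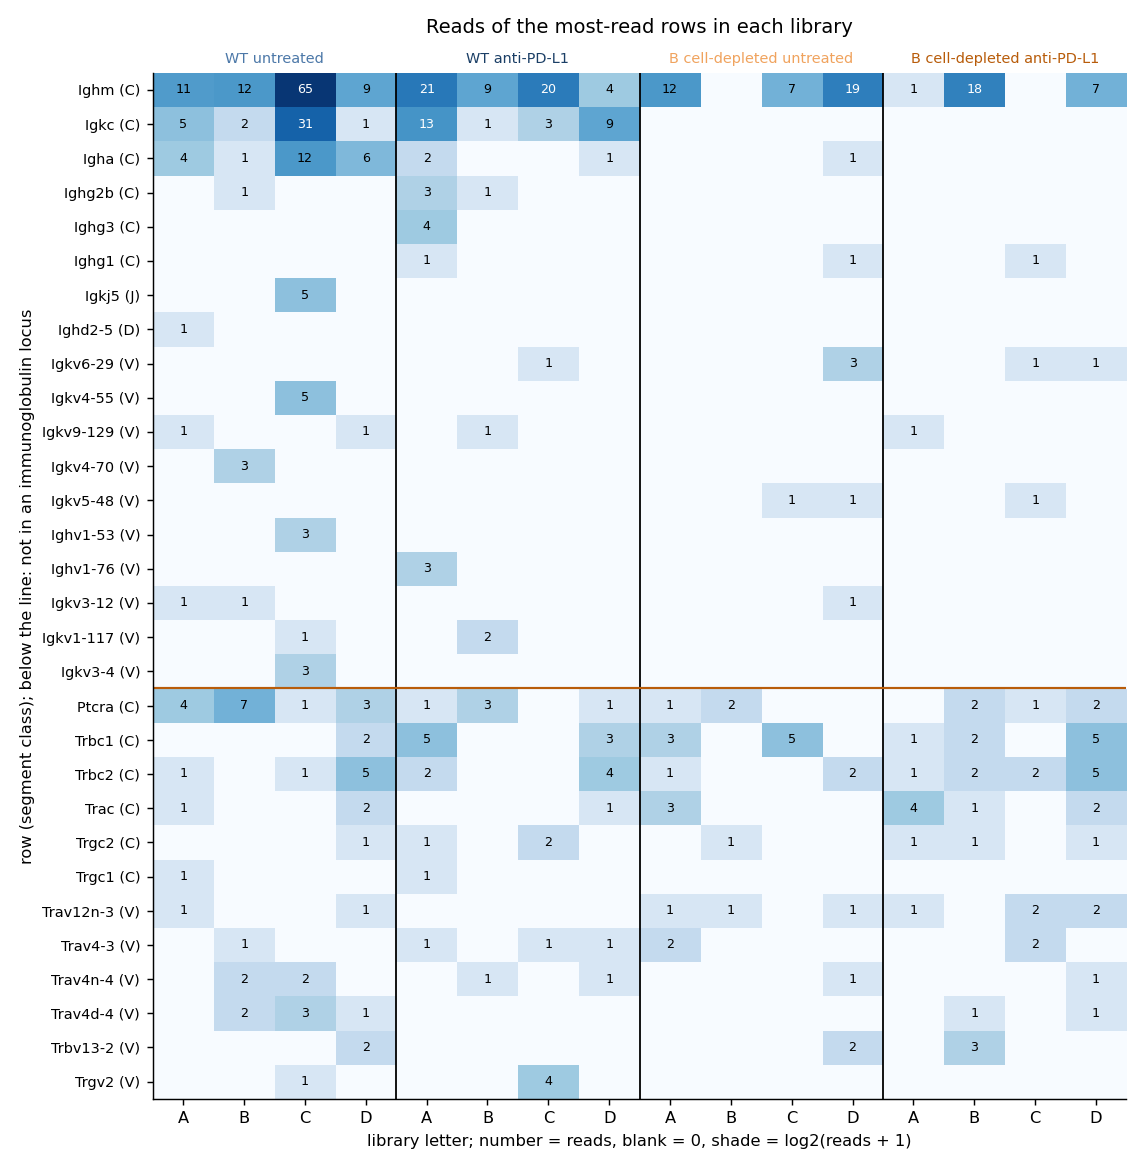
Reads in each of 16 libraries (columns, grouped by B cell status and treatment) for the most-read rows, with the segment class in brackets. Rows above the line lie in immunoglobulin loci and rows below it lie in T cell receptor loci or, for Ptcra, elsewhere. Numbers are reads, blanks are 0, and Igkc has no read to the right of the WT groups.

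Because most read V rows had 1 or 2 reads, their density was set beside that of olfactory receptor genes, a large family used mainly in the nose. These were taken as 1050 rows that overlap no other gene (a reference chosen after the data were seen), and 646 of them were read. Density is given as reads per kb of span per 100 M reads, pooled over libraries. Over all 214 immunoglobulin V rows it was 0.406 in WT and 0.165 in B cell-depleted tumors. Over the olfactory receptor genes it was 0.650 in WT and 0.704 in B cell-depleted tumors. The median gene of that family had 0.230 over all libraries where the median V row had 0. These medians cannot be compared, because V rows are shorter (96.4 kb over 214 rows against 1620 kb over 1050) and a short row is more often at 0. Pooled as a set, the V segments were thus read no more densely than this reference set in either group. The V density was lower in B cell-depleted than in WT tumors, and that of the reference set was not. Density alone does not show whether single V reads are expression. The olfactory receptor genes had 2395 reads in WT and 2300 in B cell-depleted tumors, against 89 and 32 for the V rows. Whether the 2 sets share a background of reads was not tested. Heavy V rows had a density of 0.347 in WT and 0.112 in B cell-depleted tumors, and kappa V rows 0.443 and 0.206.

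In WT tumors the constant regions other than Ighg1 were read more densely than the olfactory receptor genes, while in B cell-depleted tumors Igkc, Igha, Ighg2b, Ighg3 and Ighg1 lay below them. Igkc had a density of 88.5 in WT (51.5 without WT untreated C), where 0 of the 1050 olfactory receptor genes reached it. Ighm had 17.6 in WT (11.1 without that library) and 8.40 in B cell-depleted tumors, and of the olfactory receptor genes 0.190% reached the first of these densities and 0.667% the second. Igha had 7.78 in WT (4.66 without it) and 0.338 in B cell-depleted tumors, the latter from 1 read. Ighg2c, outside the 144 rows, had 4.39 in WT (4.48 without that library) and 5.23 in B cell-depleted tumors. The order by density in WT was thus Igkc, Ighm, Igha and Ighg2c, of which Igha and Ighg2c were close without WT untreated C, then Ighg2b (1.42), Ighg3 (1.12) and Ighg1 (0.284), of which the last 3 rest on 5, 4 and 1 reads and are not told apart. For scale, Cd79a, a signalling partner of the B cell receptor, had a density of 17.7 in WT and 16.5 in B cell-depleted tumors.

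**Figure D4:**
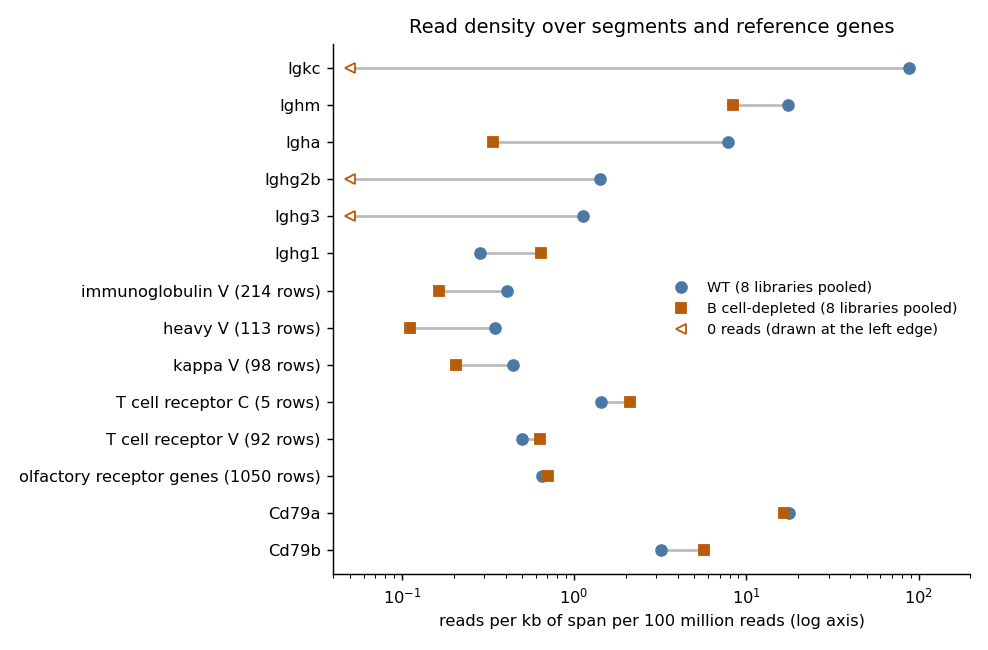
Reads per kb of gene span per 100 M reads (horizontal log axis), pooled over 8 WT (circles) or 8 B cell-depleted (squares) libraries, for immunoglobulin constant regions, sets of V rows, the T cell receptor rows of the same gene type, 1050 olfactory receptor genes and 2 B cell receptor partners. Open triangles stand for 0 reads. Igkc spans 88.5 in WT to 0 reads in B cell-depleted tumors, while V rows lie below the olfactory receptor genes.

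In the exact test over 8 against 8 libraries, the smallest possible p (0.000155, reached by Igkc) became 0.137 after adjustment over all genes. No single row could therefore be called by it, however well its groups were separated. Across the 144 rows this exact test called 0 at an adjusted p under 0.05, and 3 had an unadjusted p under 0.05. Of these, 2 were at lower levels in B cell-depleted tumors (Igkc and Igha) against 2.3% of all genes, and 1, a T cell receptor V segment, was at a higher level against 6.1% of all genes. Of the 89 immunoglobulin rows, 67 (75.3%) had a lower mean CPM in B cell-depleted tumors, with a median difference of -0.00452 CPM, and of all read genes 44.9% were lower. Rows with 1 read, 58 of the 89, take their sign from that read, so this share only restates where the reads lay. In edgeR with all genes kept, 144 rows were tested and 0 were called in any of the 5 comparisons, with 4, 2, 2, 0 and 1 at an unadjusted p under 0.05. Of all 31822 genes in the same edgeR fit, 4228, 5533, 5606, 2425 and 6528 had an unadjusted p under 0.05, a larger share in each comparison. DESeq2 was run on the filtered genes, where Ighm was the 1 row tested, and did not call it; it gave no adjusted p for treatment in WT.

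The 53 rows of this gene type in T cell receptor loci covered constant regions of the alpha, beta and gamma chains, which T cells use to recognise antigen. Trbc1, a beta chain constant region, had 0, 0, 0 and 2 reads in WT untreated A to D, 5, 0, 0 and 3 in WT anti-PD-L1, 3, 0, 5 and 0 in B cell-depleted untreated, and 1, 2, 0 and 5 in B cell-depleted anti-PD-L1 tumors. Trbc2, the other beta chain constant region, had 1, 0, 1 and 5 reads in WT untreated, 2, 0, 0 and 4 in WT anti-PD-L1, 1, 0, 0 and 2 in B cell-depleted untreated, and 1, 2, 2 and 5 in B cell-depleted anti-PD-L1 tumors. The groups overlapped for both genes, with 10 against 16 reads and 13 against 13 reads in WT and B cell-depleted tumors. Trac, the alpha chain constant region, had 4 reads in WT and 10 in B cell-depleted tumors (WT to B cell-depleted ratio 0.354, counting interval 0.0811 to 1.23). The gamma chain constant regions Tcrg-C2 and Tcrg-C1 had 8 and 2 reads.

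Of the T cell receptor V segments, Trav12n-3, listed as TCRA-V8, had 2 reads in 2 WT libraries and 8 reads in 6 B cell-depleted libraries, with an exact permutation p of 0.0194 that became 0.44 after adjustment over all genes. Trav4-3 had 4 reads in each B cell group, and the near-identical Trav4n-4 and Trav4d-4 each had 6 reads in WT and 2 in B cell-depleted tumors, which may be reads shared between copies. Trbv13-2 had 2 and 5 reads, Trgv2 5 and 0 (4 of them in WT anti-PD-L1 C), and Trbv16 2 and 2. Among J rows, Tcrg-C, whose span holds both a gamma J segment and a constant region, had 6 reads and Traj23 had 3, and the T cell receptor D row AC117678.2 had 1. Rows typed TR_, the label meant for T cell receptor segments, had 46 reads in WT and 58 in B cell-depleted tumors over 21 read rows. The 9 T cell markers, all read, summed to 0.526 to 1.41 CPM in WT and 0.254 to 1.67 CPM in B cell-depleted tumors. They include Trac, Trbc1 and Trbc2, so this sum is not independent of the T cell receptor rows above.

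Ptcra, the pre-T cell receptor alpha chain (chromosome 17, 46756227 to 46763593), had 4, 7, 1 and 3 reads in WT untreated A to D and 1, 3, 0 and 1 in WT anti-PD-L1. It had 1, 2, 0 and 0 reads in B cell-depleted untreated and 0, 2, 1 and 2 in B cell-depleted anti-PD-L1 tumors. The groups overlapped, with an exact permutation p of 0.219 over all 16 libraries. Its span overlaps CT030702.1, a row with 565002 reads, so the reads listed for Ptcra cannot be assigned to it alone. Gm20730, typed as a V segment on chromosome 6 outside these loci, had 3 reads.

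Few other genes of antibody production were called. The recombination enzymes that join V, D and J segments and repair the breaks had 10 of 12 genes tested, and none was called for B cell status in untreated tumors. In anti-PD-L1-treated tumors, where 0.698% of all genes were called, 1 was lower, Xrcc5, which binds broken DNA ends (log2 change -0.68 from WT to B cell-depleted, edgeR adjusted p = 0.0491). This call was lost whichever of the 8 libraries compared was left out, with edgeR adjusted p-values of 0.0731 to 0.121. With all libraries it was kept in edgeR with RLE factors (adjusted p = 0.0484) and without the low-count filter (adjusted p = 0.0474). It was also kept with DESeq2 (adjusted p = 0.00283) and in edgeR with only the 2 groups compared (adjusted p = 0.00734), which called 1493 and 2638 genes. In the interaction Xrcc5 (-0.83, edgeR adjusted p = 0.0329) and Hmgb1, a chromatin protein that aids the cut (-1.46, edgeR adjusted p = 0.0418), were lower, where 7.62% of all genes were called. With 1 library left out, edgeR adjusted p-values ranged from 0.0149 to 0.0684 for Xrcc5 and from 0.0126 to 0.0904 for Hmgb1, and both calls were lost without any 1 WT untreated library, without C or D of WT anti-PD-L1, without C of B cell-depleted untreated and without B, C or D of B cell-depleted anti-PD-L1. Hmgb1 was also lost without WT anti-PD-L1 B and, at 0.0541, without the low-count filter. Both interaction calls were kept in edgeR with RLE factors (adjusted p = 0.0326 for Xrcc5 and 0.0413 for Hmgb1). DESeq2 kept them too (adjusted p = 0.00565 and 0.00976), where it called 3242 genes. Both genes are active in most dividing cells, and they were at 20957 and 16790 reads in WT tumors, while Rag1, which makes the cut, had 11 reads in WT and 10 in B cell-depleted tumors. Of 2 tested surrogate light chain genes, 5 of class switching and hypermutation, 7 receptors of antibody, 4 of assembly and secretion, 8 B cell markers and 4 plasma cell markers, edgeR called none in any of the 5 comparisons. Igj, the joining chain of secreted IgM and IgA, had 7 reads in WT and 5 in B cell-depleted tumors.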

How the data were processed

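RNA of 16 tumors (4 groups of 4) was depleted of ribosomal RNA, made into Ion Total RNA-Seq libraries, and sequenced and aligned by a service provider. The authors deposited raw read counts per gene on mm10. The sources used here do not name the aligner, counter or annotation. The submitters' processing notes list DESeq without a version. Listed lengths equalled the span in 38087 of 38087 rows, introns included. A normalized table, 32 further per-library columns, and the authors' fold-change and enrichment tables (log2 changes, p-values) were not used.

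Rows were placed in loci and named by RefSeq coordinates (GRCm38, 142 of 144 matched). Counts were tested with edgeR 4.0.16 in R 4.3.3 (TMM, filterByExpr, 1 fit over 4 groups, two-sided quasi-likelihood test, Benjamini-Hochberg) and DESeq2 1.42.0 as an alternative. CPM on raw totals entered exact permutation tests over all splits into 8 and 8 for every gene with at least 1 read. Depth was 12.5 to 35.6 M reads per library. Intervals (exact binomial, 95%) and floors cover counting error only. On simulated counts for the untreated comparison (19211 genes), edgeR recovered 87 of 100 genes changed 2-fold and 100 of 100 changed 4-fold, with 12 false calls. The simulation gave all genes the same fixed spread and changed only genes above a minimum mean count. It therefore does not show the recovery for rows with few reads or a wider spread.

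The rows and lists were chosen with earlier results of these data known. Named rows were every C row, the 10 V, 3 D and 3 J rows with most reads, rows past the edgeR filter, and rows with an unadjusted exact p under 0.05. Rows with at least 20 reads, of which there were 6, were given in full. Some genes are not reported here.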

Additional observations from a re-analysis of the deposited data

Results flagged for a closer look

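Within groups of 4 libraries, a library far from the other 3 was found in 9 of 53 tests of sums and named rows. The rule flags about 1 in 20 by chance for normally distributed values, and that rate does not hold for counts of a few reads. A library with any read is always flagged where the other 3 held 0 reads, as for Igha and Trbc1 below. Library C of WT untreated gave 6 of these: all 144 rows at 6.24 CPM, the immunoglobulin loci at 5.85 CPM, the heavy chain locus at 3.64 CPM, the kappa locus at 2.21 CPM, Ighm at 2.81 CPM and Igkc at 1.34 CPM. The sums share rows, so these 6 are not independent. The others rest on few reads: Igha (AC160982.1) at 0.0292 CPM in B cell-depleted untreated D, which is 1 read, Trbc1 at 0.0600 CPM in WT untreated D, which is 2 reads, and Trbc2 at 0.186 CPM in B cell-depleted anti-PD-L1 D, which is 5 reads.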

How the results depend on the processing

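No paired analysis was possible because the columns carry letters and not the labels' replicate numbers. Ighm, the 1 row past the filter, was not called with RLE factors, with DESeq2 (no adjusted p for treatment in WT), with only the groups compared, or with any library left out. Without the filter, edgeR called 0 of 144 rows in each of the 5 comparisons. The exact test called 0 rows with TMM-scaled sizes, with splits within treatment or with any library left out. It also called 0 of all genes in each of these settings, so this result is not particular to these rows. In the main exact test even the smallest possible p became 0.137 after adjustment. The lack of calls there does not bear on how well the groups of a row were separated. With only the groups compared there is no interaction, and Ighm missed the filter in both comparisons of treated B cell-depleted tumors. The background moved with the tool: DESeq2 called 993, 1493, 1721, 336 and 3242 genes in the 5 comparisons, against 172, 135, 1, 13 and 1474 in edgeR. With only the groups compared edgeR called 0, 2638, 5441 and 0 genes in the first 4, and without the filter 121, 84, 4, 22 and 945. Leaving out a library turned the sign of an Ighm log2 change in 3 edgeR fits, none past the threshold: treatment in WT ranged from -1.40 to 0.33, the highest without WT untreated C, and the interaction ranged from -0.81 without the same library to 1.00, with -0.40 without B cell-depleted anti-PD-L1 B. Leaving out WT untreated C moved the difference in summed CPM of the 144 rows from -1.13 to -0.545, and other libraries gave -1.03 to -1.30. Using rows of the 3 immunoglobulin loci only gave -1.22, and adding rows of those loci with another gene type gave -1.21 (both chosen after the data were seen). For the 21 read rows typed TR_, the difference was 0.0585 CPM, with a range of 0.0267 to 0.0957 when a library was left out, and 0.193 CPM with the 53 T cell receptor rows of the immunoglobulin gene type added. The exact p of Igkc was 0.000155 without any 1 WT library and 0.00948 without any 1 B cell-depleted library, where its adjusted p ranged from 0.212 to 0.445. Leaving out a B cell-depleted library kept its mean difference at -0.323 CPM, since all of these libraries were at 0. The higher p there comes from unequal group sizes, as splits with most reads in the smaller group give larger differences of means. The exact p of Ighm ranged from 0.0527 to 0.245. At these depths most V rows had 1 or 2 reads, and a difference in any of them was not detectable.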
